A study of Homo sapiens with 12 samples.

Results

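Palbociclib (CDK4/6i) given alone was compared with no treatment in HL60, a human acute myeloid leukemia cell line that does not carry PML-RARA and can mature along the neutrophil line. All genes expressed in these cells were described, which were the 13318 genes of the 59251 in the count table that passed a filter on low counts. The study treated HL60 cells with CDK4/6i, with all-trans retinoic acid (ATRA) or with both. Total RNA was extracted, and 12 libraries were sequenced, 3 of each group. The 6 libraries used here for the main comparison were non-treated cells and cells exposed to 1 µM palbociclib for 48 h with no retinoid, and the 3 libraries given 1 µM ATRA for 48 h are shown where the drugs are set side by side. Every culture was grown in RPMI1640 with 10% FBS, and the labels number the libraries of each group as biological replicates without saying what made the cultures separate, so p-values measure the spread between these libraries. HL60 is 1 cell line, and whether the non-treated cells received the drug's solvent was not stated for these libraries.

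CDK4 and CDK6, bound to D-type cyclins, phosphorylate RB1 and its relatives RBL1 and RBL2 early in G1, which frees E2F transcription factors to switch on the genes of DNA replication. Without that phosphorylation RB1 holds the activating E2F proteins in check, while RBL1 and RBL2 join the repressive E2F proteins and the MuvB core in the DREAM complex, which silences S-phase genes through E2F sites and mitotic genes through the CHR element of their promoters. Palbociclib inhibits both kinases and stops cells that have RB1 in G1, whereas ATRA acts on nuclear retinoic acid receptors and drives myeloid maturation.

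The 6 libraries held 15392648 to 18679544 counts. Values are given as CPM, a gene's counts scaled to a fixed library size with TMM factors, and 3 counts, taken as the limit that a count of 0 allows, corresponded to 0.156 to 0.188 CPM. Such limits cover counting error only, because PCR copies of a molecule cannot be recognised in these counts. Of the 10 markers of the neutrophil promyelocyte line, MPO (myeloperoxidase) reached 6517 ± 168 CPM (SD, n = 3) in non-treated cells, while ELANE, PRTN3 and AZU1 had no count in any library and are also annotated on alternate contigs. Monocyte markers summed to 0.169 to 1.04 CPM, with 3 of 10 at 0 in all 6 libraries, and epithelial and fibroblast markers to 0.0563 to 0.41 CPM, with 5 of 10 at 0. Lymphoid markers summed to 18.6 to 21.8 CPM in non-treated cells and 27.3 to 29.1 CPM with CDK4/6i, and the corresponding ranges for erythroid and megakaryocyte markers were 2.94 to 3.94 CPM and 7.42 to 9.78 CPM, with 2 of 10 and 6 of 11 markers at 0. Their part in the results below was not tested, and in bulk RNA fewer cells of a type and less RNA per cell cannot be told apart.

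CDK4/6i changed the expression of 7482 of the 13318 genes (56.2%), with 3764 higher (28.3%) and 3718 lower (27.9%) at an adjusted p under 0.05 in edgeR's quasi-likelihood test. The values of the 2 groups did not overlap in 8082 genes (60.7%). A rise or fall by a number below is a difference on the log2 scale. Changes of at least 2-fold were also almost evenly divided, with 741 rises (5.56%) and 735 falls (5.52%), but they lay at different levels. The falls had a median mean expression of 15.1 CPM and the rises 1.85 CPM. Among the 9046 genes at 5 CPM or more, 70 genes fell and 1 rose at least 8-fold, 167 fell and 18 rose at least 4-fold, and 474 fell and 238 rose at least 2-fold. Of all 100 falls of at least 8-fold, 57 were in the cell cycle lists described next. These lists held 214 tested genes, of which 191 fell, 11 rose and 12 were not called, and they supplied 164 (22.3%) of the 735 falls of at least 2-fold, and 571 lay outside them.

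The G1 machinery that the drug acts on was divided by function. The kinase genes themselves moved little. CDK4 measured 106, 104 and 105 CPM in the non-treated libraries and 75.5, 77.1 and 72.2 CPM with CDK4/6i, and the 2 groups did not overlap (log2 fold change -0.49 ± 0.05 (SE), adjusted p = 7.2e-13). Its gene overlaps TSPAN31 on the opposite strand, and whether reads were counted by strand is not given in the sources used here. CDK6 measured 81.6, 69.7 and 81 CPM in the non-treated libraries and 89.5, 89 and 85.9 CPM with CDK4/6i (log2 fold change 0.19 ± 0.05 (SE), adjusted p = 0.0015), and without non-treated replicate 2 its adjusted p became 0.064. Among the D-type cyclins, CCND1 was 94.5, 89.4 and 93.5 CPM before and 189, 192 and 189 CPM with the drug, so that each treated library lay above each non-treated one (log2 fold change 1.04 ± 0.04 (SE), adjusted p = 9.6e-28). CCND2 rose by 0.45 on the log2 scale from 271 ± 8.09 CPM, and CCND3 changed by -0.13, a call that was lost without CDK4/6i replicate 3 (adjusted p = 0.063). In contrast, the next kinase of the cycle fell. CDK2, the partner of E-type cyclins, measured 65.6, 67.7 and 64.2 CPM in the non-treated libraries and 13.1, 13.5 and 12.8 CPM with CDK4/6i (log2 fold change -2.33 ± 0.07 (SE), adjusted p = 1.9e-32). CCNE1 and CCNE2 also fell (log2 fold changes -0.99 and -3.11), CCNE2 from 5.94 to 0.68 CPM, with the limit that CCNE2 overlaps the more abundant INTS8 on the opposite strand.

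The pocket proteins did not move together. RB1 measured 182, 189 and 179 CPM in the non-treated libraries and 139, 136 and 149.7 CPM with CDK4/6i (log2 fold change -0.37 ± 0.04 (SE), adjusted p = 1.1e-11) and RBL2 rose slightly (log2 fold change 0.20 ± 0.04, adjusted p = 0.00014). RBL1, itself an E2F target, was 91.5, 97.9 and 91.4 CPM in non-treated cells and 17.1, 16.9 and 18.5 CPM with CDK4/6i, a 5.36-fold fall with no overlap (log2 fold change -2.42 ± 0.06 (SE), adjusted p = 1.8e-34). The kinase inhibitors also went in both directions. CDKN2C, which encodes the CDK4 and CDK6 inhibitor p18, was the largest fall of the 17 tested G1 genes at 21.7, 25.1 and 22.4 CPM in the non-treated libraries and 2.18, 2.69 and 2.05 CPM with CDK4/6i (log2 fold change -3.32 ± 0.12 (SE), adjusted p = 6.7e-29), whereas it rose with ATRA (log2 fold change 0.99, adjusted p = 8.8e-17). CDKN1B, which encodes p27, fell by 1.01 on the log2 scale. CDKN2B, encoding p15, rose from 0.453 to 1.63 CPM and CDKN1A, encoding p21, from 0.226 to 0.755 CPM, both at the edge of detection, with 2, 8, 1 against 16, 12, 12 counts per library for CDKN1A. CDKN2A and CDKN2D had log2 fold changes of -0.44 and -0.30, and both calls were lost without CDK4/6i replicate 3 (adjusted p = 0.098 and 0.082). In all, 6 of the 17 tested G1 genes rose and 11 fell, with a list median of -0.37 beside 0.02 for all genes tested.

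Within the E2F family the activators split. E2F1 and E2F2 both fell while E2F3 was not called. E2F1 measured 50.1, 49.98 and 51.6 CPM in the non-treated libraries and 7.52, 9.66 and 9.25 CPM with CDK4/6i (log2 fold change -2.53 ± 0.09 (SE), adjusted p = 1.2e-29). E2F2 dropped further, from 28.8, 28.8 and 25.6 CPM to 1.09, 0.856 and 1.4 CPM (log2 fold change -4.62 ± 0.14 (SE), adjusted p = 2e-32), and this gene is also annotated on an alternate contig. E2F3 was 75.9, 74.2 and 75.1 CPM in the non-treated libraries and 72.6, 72.7 and 76.9 CPM with CDK4/6i, the groups overlapped and the log2 fold change was -0.02 ± 0.05 (adjusted p = 0.74). The atypical repressors E2F7 and E2F8, which are induced in S phase, were nearly lost. E2F8 went from 24.6, 22.6 and 22.8 CPM to 1.35, 1.04 and 0.527 CPM (log2 fold change -4.55 ± 0.16 (SE), adjusted p = 6.5e-30), and E2F7 had 116 counts over the 3 non-treated libraries and 3 counts over the 3 treated ones, a ratio of 40.5 (95% exact interval 13.5 to 199, counting error only). E2F4, the main E2F of the DREAM complex, was almost level (log2 fold change -0.18 ± 0.04 (SE), adjusted p = 0.00015) and E2F5 and E2F6 were not called (adjusted p = 0.29 and 0.23). The dimer partner TFDP1 fell by 0.90 on the log2 scale from 851 ± 9.25 CPM, and TFDP2 was the single family member to rise (log2 fold change 0.35 ± 0.04). Thus 6 of 10 members fell and 1 rose, with a median of -0.65 that became -0.02 when only genes with at least 10 counts in each of the 12 libraries of the series were kept. Per kilobase of transcript, TFDP1 was the most abundant member in non-treated cells at 232 CPM per kb, E2F4 was at 59.6 and E2F8 at 5.9.

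The transcription factors that follow E2F later in the cycle fell too. MYBL2 (B-MYB), which joins MuvB to activate mitotic genes, was 393, 386 and 359 CPM in non-treated cells and 20.6, 20.8 and 19.1 CPM with CDK4/6i (log2 fold change -4.23 ± 0.06 (SE), adjusted p = 2.5e-47). FOXM1, which acts with it in G2, was 80.1, 79.6 and 76.6 CPM in non-treated cells and 3.94, 2.75 and 2.81 CPM with CDK4/6i (log2 fold change -4.62 ± 0.09 (SE), adjusted p = 1.2e-40). The MuvB subunits LIN9, LIN52, LIN54 and RBBP4, which serve the repressive and the activating complex alike, also fell (log2 fold changes -0.45 to -0.66), and LIN37 was not called (log2 fold change 0.14, adjusted p = 0.46).

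**Figure D1:**
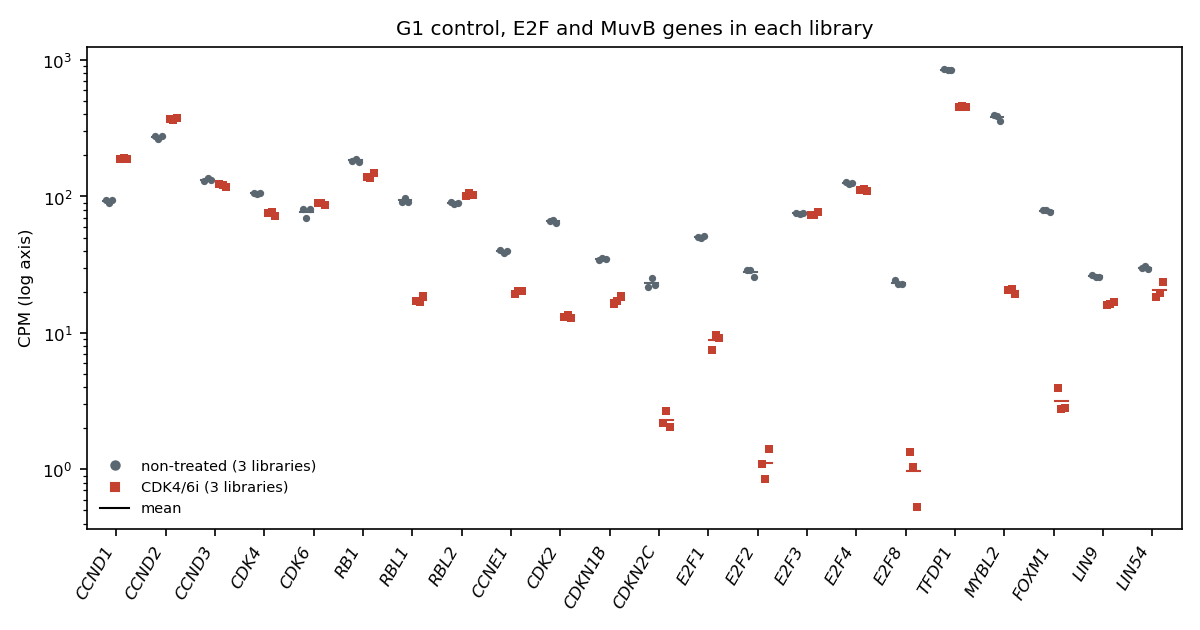
CPM on a log axis for a selection of genes of the G1 control, E2F and MuvB lists at 5 CPM or more. Points are the 3 non-treated and 3 CDK4/6i libraries, with a line at each mean. Members left out include TFDP2, E2F6, LIN37 and RBBP4. Of the genes shown, E2F2, E2F8 and FOXM1 fall furthest, E2F2 to 1.09, 0.856 and 1.4 CPM, while E2F3 and CDK6 stay beside their non-treated values.

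The genes of DNA replication were next examined as a list of 62, all of which passed the filter. With CDK4/6i 59 fell, 52 of them at least 2-fold, none rose, and the list median was -1.99. Their summed expression went from 9727 ± 214 CPM to 2703 ± 42.2 CPM. RRM2, the regulated subunit of ribonucleotide reductase, fell furthest, from 452, 448 and 424 CPM to 18.6, 15.2 and 17 CPM (log2 fold change -4.70 ± 0.05 (SE), adjusted p = 1.6e-49). Enzymes of thymidylate supply followed, with TYMS from 163 to 7.93 CPM and TK1 from 94 to 5.45 CPM (log2 fold changes -4.36 and -4.11), although TYMS overlaps ENOSF1 on the opposite strand. CLSPN, the claspin adaptor of the replication checkpoint, GINS2, a subunit of the replicative helicase, and HELLS, a chromatin remodeler of S phase, fell (log2 fold changes -4.36, -4.10 and -4.0). The 3 genes not called were ORC2, ORC4 and ORC5, which encode subunits of the origin recognition complex. ORC2 measured 51.4, 51.9 and 51.6 CPM in the non-treated libraries and 48.2, 56.4 and 49.1 CPM with CDK4/6i, and the ranges overlapped (adjusted p = 0.85). ORC4 and ORC5 had log2 fold changes of -0.12 and -0.14 (adjusted p = 0.076 and 0.082).

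Genes of homologous recombination and the Fanconi pathway were lower as well. Of 30 genes tested 29 were lower, 26 of them at least 2-fold, with a list median of -1.87. EXO1, the resection nuclease, was 55.4, 59.9 and 54.3 CPM in non-treated cells and 2.33, 3.61 and 2.98 CPM with CDK4/6i (log2 fold change -4.26 ± 0.11 (SE), adjusted p = 1.1e-35). CHEK1, the checkpoint kinase downstream of ATR, was 102, 108 and 105 CPM in non-treated cells and 5.5, 6.36 and 8.08 CPM with CDK4/6i (log2 fold change -3.99 ± 0.08 (SE), adjusted p = 8.5e-40), and the helicase BRIP1 fell by 3.93. The exception was FANCF, an adaptor of the Fanconi core complex, which rose from 8.84 to 13.4 CPM (log2 fold change 0.60 ± 0.11, adjusted p = 1e-05).

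Mitotic genes had the lowest median of all lists. All 76 tested members of a list of 77 were lower, 71 at least 2-fold, with a median of -2.78, and their summed expression went from 9986 ± 73.4 CPM to 2178 ± 51.7 CPM. MKI67, the proliferation antigen Ki-67, measured 639, 643 and 707 CPM in the non-treated libraries and 19.6, 22.5 and 20.9 CPM with CDK4/6i (log2 fold change -4.99 ± 0.06 (SE), adjusted p = 6.1e-50), a 31.7-fold fall. CDK1, the kinase that starts mitosis, measured 149.95, 152 and 139 CPM in the non-treated libraries and 5.5, 4.95 and 6.85 CPM with CDK4/6i (log2 fold change -4.67 ± 0.07 (SE), adjusted p = 9.1e-45). KIF20A, a kinesin of the cleavage furrow, went from 39.5, 42.9 and 41.3 CPM to 0.83, 1.34 and 0.878 CPM (log2 fold change -5.35 ± 0.13 (SE), adjusted p = 1.3e-36), and CDCA3, a trigger of mitotic entry, had the largest fall of the list at -5.46. ESPL1, the separase that opens sister chromatids, and GTSE1, a microtubule protein, fell (log2 fold changes -4.57 and -4.79). KIF20A overlaps CDC23, FOXM1 overlaps ITFG2 and GINS2 overlaps GSE1 on the opposite strand. The smallest falls of the mitosis list were CKAP2, a spindle protein, at -0.41 and CKS2, a CDK-binding subunit, at -0.43.

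Because E2F sites and CHR elements are the promoter sequences through which these genes are known to be silenced, the 100 bases just before the start of a few of the genes above are shown from RefSeq (GRCh38.p14), 5′ to 3′ on the strand of the gene. Capitals mark matches to an E2F motif (TTTCCCGC, TTTGGCGC, TTTCGCGC or TTTGCCGC) in E2F1 (chr20:33686386-33686485, minus strand), E2F2 (chr1:23531234-23531333, minus strand) and RBL1 (chr20:37095998-37096097, minus strand), and to a CHR motif (TTTGAA or TTTAAA) in KIF20A (chr5:138179012-138179111, plus strand) and MKI67 (chr10:128126424-128126523, minus strand), on either strand.
E2F1: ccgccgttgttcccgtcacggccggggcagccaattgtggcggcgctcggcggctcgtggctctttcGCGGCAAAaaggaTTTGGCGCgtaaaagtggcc
E2F2: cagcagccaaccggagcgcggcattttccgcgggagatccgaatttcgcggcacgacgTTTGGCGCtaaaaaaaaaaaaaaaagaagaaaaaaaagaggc
RBL1: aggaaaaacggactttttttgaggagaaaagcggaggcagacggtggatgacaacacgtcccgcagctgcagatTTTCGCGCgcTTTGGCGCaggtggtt
KIF20A: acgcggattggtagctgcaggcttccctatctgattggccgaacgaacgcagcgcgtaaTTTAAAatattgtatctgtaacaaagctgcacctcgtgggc
MKI67: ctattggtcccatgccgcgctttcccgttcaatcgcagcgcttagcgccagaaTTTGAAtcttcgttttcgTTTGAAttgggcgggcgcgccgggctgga

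The E2F matches began 33 and 20 bases before the start of E2F1, 42 bases before that of E2F2, and 26 and 16 bases before that of RBL1. The CHR matches began 41 bases before the start of KIF20A and 47 and 29 bases before that of MKI67. These are matches of letters and not shown to be bound in these cells. Each motif was then searched on both strands from 250 bases before to 50 bases after the start in the 27305 promoters of the RefSeq table, of which 9788 belonged to tested genes. An E2F motif was found in 3.33% of all promoters and 5.52% of those tested, and a CHR motif in 24.3% and 16.2%. In the DNA replication list 24 of 55 promoters (43.6%) held an E2F motif and 6 (10.9%) a CHR motif, whereas in the mitosis list 5 of 65 (7.69%) held an E2F motif and 54 (83.1%) a CHR motif. Other lists held the motifs in other proportions. An E2F motif was in 4 of 8 promoters of the E2F family, and in homologous recombination 23.1% held E2F and 15.4% CHR. Lamin and HMG promoters held E2F in 25% and CHR in 68.8%, and CHR was in 46.7% of the promoters of myeloid surface receptors, most of which rose. Within the 100 bases before the start, a CHR motif was found in 58.5% of mitotic promoters and 8.69% of all promoters. Across all tested genes, E2F motifs were held by 18.5% of the promoters of genes that fell at least 8-fold, 20.9% at 4- to 8-fold, 12.5% at 2- to 4-fold and 7.50% below 2-fold, by 4.31% of genes not called, and by 3.82% of those that rose under 2-fold and 2.86% of those that rose at least 2-fold. For CHR motifs the shares in the same order were 49.4%, 31.8%, 22.5% and 14.75% among falls, 16.2% among genes not called, and 14.05% and 21% among rises.

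**Figure D2:**
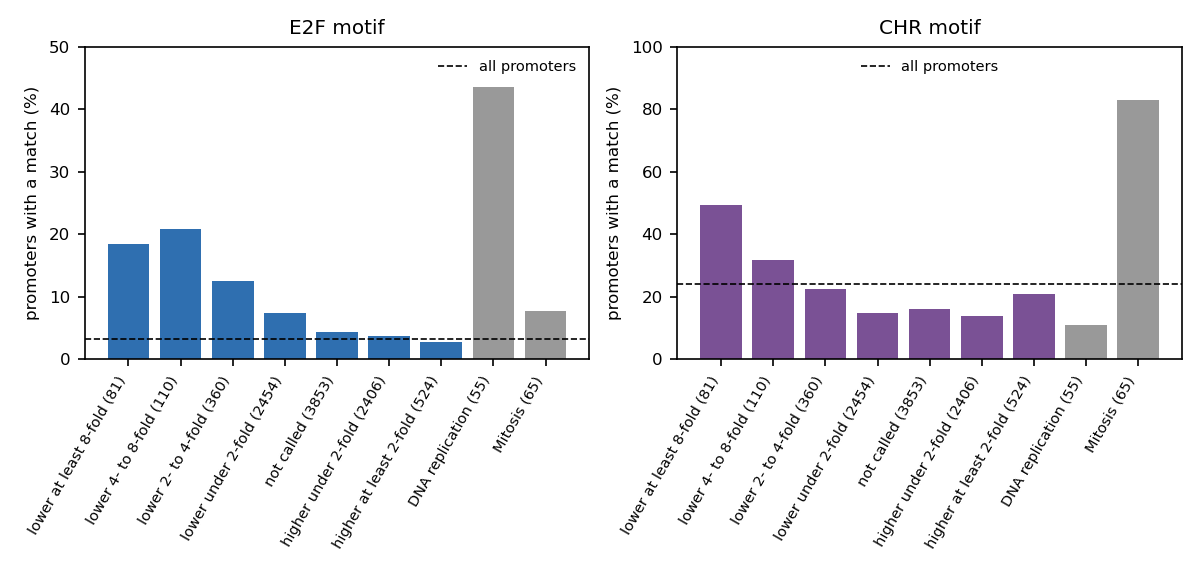
Percentage of promoters (250 bases before to 50 after the start) with an E2F or a CHR motif, by the size and direction of the change with CDK4/6i. Of the gene lists only DNA replication and mitosis are plotted, and a line marks the share over all promoters. Of the groups plotted, the DNA replication list has the highest bar for E2F (43.6%) and the mitosis list for CHR (83.1%).

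Most chromatin genes of the next list also fell. HMGB2, a chromatin protein of dividing cells, measured 746, 783 and 727 CPM in the non-treated libraries and 119, 123 and 124 CPM with CDK4/6i (log2 fold change -2.62 ± 0.04 (SE), adjusted p = 5.4e-44), and its relatives HMGB3, HMGN2 and HMGB1 fell (log2 fold changes -1.78, -1.64 and -1.57). TMPO, the lamina-associated polypeptide, was 338, 342 and 332 CPM in non-treated cells and 76.4, 76.4 and 82.9 CPM with CDK4/6i (log2 fold change -2.10 ± 0.04 (SE), adjusted p = 3.2e-40). EZH2, the methyltransferase of Polycomb complex PRC2, fell from 94.7 to 21 CPM (log2 fold change -2.17 ± 0.06 (SE), adjusted p = 3.7e-34), while its relative EZH1, typical of resting cells, rose from 14.8 to 19.8 CPM (log2 fold change 0.42 ± 0.09, adjusted p = 0.00015). The A-type lamin LMNA rose by 0.21. In this list 14 of 18 genes fell and 2 rose, with a median of -0.75. Of 65 replication-dependent histone genes only 12 passed the filter, summing with the untested ones to 29.98 ± 2.3 CPM before and 27.7 ± 1.94 CPM with the drug, with 4 lower and 3 higher, near the shares of all tested genes (27.9% lower and 28.3% higher). Their median of -0.34 ran from -1.34 to 0.34 over the alternative settings, and the single histone gene above the expression limit for named genes, H2BC12, rose (log2 fold change 1.12 ± 0.11 (SE), adjusted p = 7e-13). Whether polyadenylated RNA was selected is not stated in the study's methods. The part of such a selection in these low histone values was not tested.

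Outside the cell cycle lists, several of the largest falls at 5 CPM or more were still genes of division that the lists did not hold. WDR76, a nuclear WD-repeat protein, went from 74.8, 69.7 and 66.8 CPM to 2.39, 2.87 and 2.98 CPM (log2 fold change -4.68 ± 0.09 (SE), adjusted p = 6.8e-40). IQGAP3, an IQ-motif scaffold protein, KIF18B, a kinesin, HJURP, the chaperone of centromeric histone, PKMYT1, which restrains CDK1, and ESCO2, which acetylates cohesin, fell (log2 fold changes -4.69, -4.33, -3.75, -3.79 and -3.54), of which PKMYT1 overlaps PAQR4 and ESCO2 overlaps PBK on the opposite strand. APOBEC3B, a cytidine deaminase that mutates DNA, measured 18.3, 18.7 and 17.6 CPM in the non-treated libraries and 1.3, 1.41 and 1.76 CPM with CDK4/6i (log2 fold change -3.61 ± 0.17 (SE), adjusted p = 1.4e-24). ZNF367, a zinc finger protein, and CTNNAL1, related to alpha-catenin, fell (log2 fold changes -3.54 and -3.49). NRGN (neurogranin), a calmodulin-binding protein, went from 12.1, 9.85 and 10.7 CPM to 0.467, 1.16 and 1.17 CPM (log2 fold change -3.57 ± 0.21 (SE), adjusted p = 2.7e-20), whereas with ATRA it measured 19.4, 16.9 and 18.5 CPM. The other falls of this rank, DYNC2I2 of the dynein complex (log2 fold change -4.01) and the antisense RNA TMPO-AS1 (log2 fold change -3.94), each overlap a more abundant gene on the opposite strand.

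Among the 12 largest rises outside the cell cycle lists at 5 CPM or more, MVP, the major protein of vault particles, measured 1.86, 1.44 and 1.18 CPM in the non-treated libraries and 18.1, 17.6 and 16.9 CPM with CDK4/6i (log2 fold change 3.55 ± 0.14 (SE), adjusted p = 5.3e-27), the single rise of at least 8-fold at this level. MVP shares its strand with PAGR1, which it overlaps and which had a log2 fold change of -0.37. PADI4, the enzyme that citrullinates histones in neutrophils, went from 2.94, 2.45 and 3.44 CPM to 24.5, 22.2 and 21.4 CPM and S100A8, a calprotectin subunit, from 6.91, 6.77 and 7.21 CPM to 46.8, 49.9 and 48.3 CPM, in both cases without overlap (log2 fold change 2.94 ± 0.11 (SE), adjusted p = 8.5e-29 and log2 fold change 2.79 ± 0.08 (SE), adjusted p = 6.3e-34). With ATRA the same genes reached 348 ± 8.36 and 479 ± 20.6 CPM. CR1, the receptor for complement fragments C3b and C4b, measured 35.5, 35.1 and 36.5 CPM in the non-treated libraries and 159, 164 and 175 CPM with CDK4/6i (log2 fold change 2.22 ± 0.05 (SE), adjusted p = 5e-38). The junctional adhesion protein JAML, the integrin subunit ITGB7 and the chemokines CXCL8 and CCL2 rose by 2.62, 2.09, 2.44 and 2.08 on the log2 scale, with ITGB7 overlapping ZNF740 on the opposite strand. With ATRA 3 genes of this rank were lower than in non-treated cells (adjusted p = 1.7e-05 for LTC4S, 2.4e-09 for DLX2 and 6.4e-08 for TMEM150A). LTC4S, which makes leukotriene C4, measured 2.52, 2.26 and 2.37 CPM in the non-treated libraries and 13.4, 12.5 and 12.6 CPM with CDK4/6i but 0.801, 1.28 and 0.773 CPM with ATRA, and the homeobox gene DLX2 measured 3.13, 2.95 and 3.27 CPM in the non-treated libraries and 15.2, 18 and 15.7 CPM with CDK4/6i but 0.863, 0.875 and 0.773 CPM with ATRA. TMEM150A, a membrane protein, measured 2.7, 4.33 and 2.53 CPM in the non-treated libraries and 14.8, 15.3 and 14.2 CPM with CDK4/6i but 0.431, 0.816 and 1.38 CPM with ATRA. BTG2, an antiproliferative gene, rose by 2.26.

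**Figure D3:**
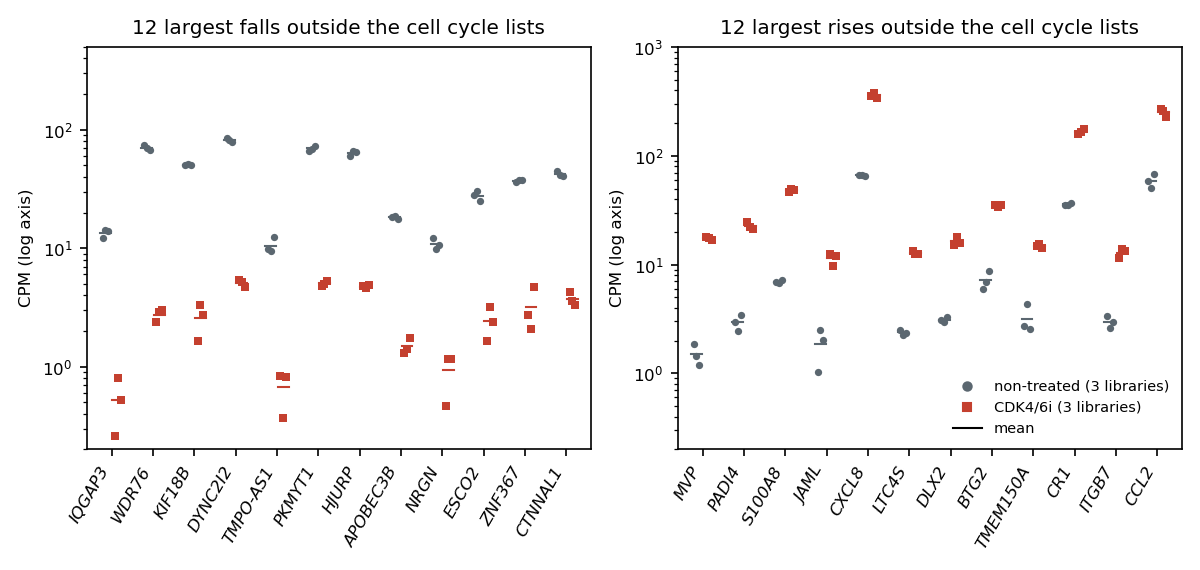
CPM per library on a log axis for the 12 largest rises and 12 largest falls outside the cell cycle lists, as points for 3 non-treated and 3 CDK4/6i libraries. The 2 groups are apart for every gene shown, which the choice of these genes required.

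In terms of the RNA pool, the largest losses of CPM were in MPO, which went from 6666, 6550.2 and 6335 CPM to 3543, 3451 and 3414 CPM, in TUBA1B (alpha-tubulin, 2095 to 600.2 CPM) and PTMA (prothymosin alpha, 3095 to 1921 CPM), and in HMGB1, HMGN2 and HNRNPA2B1, an RNA-binding protein. The largest gains were in the translation elongation factors EEF1A1 (16432 ± 536 to 21497 ± 601 CPM) and EEF2 (7205 ± 149 to 10418 ± 369.6 CPM), in the actins ACTG1 and ACTB, in SRGN, the proteoglycan core of granules, and in the mitochondrial gene COX1. COX1 measured 3966, 3565 and 5477 CPM in the non-treated libraries and 6446, 6309 and 5571 CPM with CDK4/6i, so that non-treated replicate 3 lay close to the treated libraries. Mitochondrial genes took 1.90% to 2.79% of counts in non-treated cells and 2.42% to 2.75% with CDK4/6i.

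Growth and biosynthesis were examined next, since a cell may stop dividing without ceasing to grow. MYC, the growth regulator amplified in this line, fell slightly, at 1301, 1297 and 1278 CPM in the non-treated libraries and 1190.1, 1193 and 1166 CPM with CDK4/6i (log2 fold change -0.13 ± 0.04 (SE), adjusted p = 0.007), whereas with ATRA it measured 141, 155 and 156 CPM (log2 fold change -3.10). MXD4, a MAX partner that opposes MYC, rose from 37.6, 37.8 and 38.4 CPM to 167, 163 and 151 CPM (log2 fold change 2.08 ± 0.05 (SE), adjusted p = 1.8e-36), and MXD1 rose by 0.91. In this network 6 of 10 tested genes rose and 3 fell, with a median of 0.18. Ribosome biogenesis declined only slightly, with 34 of 47 genes lower and 5 higher but none changed by 2-fold and a median of -0.22, beside -1.19 with ATRA. UTP20, of the small-subunit processome, and UBTF, the upstream factor of RNA polymerase I, had the log2 fold changes -0.86 and -0.61, and of the polymerase subunits POLR1G, which overlaps ERCC1 on the opposite strand, fell by 0.74 and POLR1D rose by 0.37. Cytosolic ribosomal protein genes went the other way. Of 76 tested 67 rose and none fell, again with no change of 2-fold, and their median was 0.27. They took 9.39% of CPM in non-treated cells and 11.3% with the drug. RPL12 measured 1249, 1226 and 1209 CPM in the non-treated libraries and 1750.2, 1693 and 1685 CPM with CDK4/6i (log2 fold change 0.48 ± 0.04 (SE), adjusted p = 2.9e-13) and RPL3 rose by 0.47. Many ribosomal protein genes have near-identical pseudogenes, so single members are uncertain.

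Glycolysis and respiratory chain genes were called in both directions, as were all tested genes (28.3% higher and 27.9% lower). In glycolysis 10 of 24 genes rose and 8 fell, with a median of 0.04 that was 0.0068 without non-treated replicate 3, 0.014 without CDK4/6i replicate 1 and 0.057 without non-treated replicate 2. The glucose transporter SLC2A3 (GLUT3) measured 26.4, 27 and 26.5 CPM in the non-treated libraries and 85.2, 82.3 and 81.1 CPM with CDK4/6i (log2 fold change 1.64 ± 0.05 (SE), adjusted p = 2.4e-31) and hexokinase HK3 rose by 1.35, whereas lactate dehydrogenase LDHA and the lactate carrier SLC16A1 fell (log2 fold changes -0.43 and -0.52). In the nuclear-encoded respiratory chain 28 of 72 rose and 10 fell, with a median of 0.05 (0.036 without non-treated replicate 3). Of 30 genes of cholesterol and fatty acid synthesis 17 fell and none rose, with a median of -0.19. The largest falls there were the desaturases FADS1 (29.7, 30.9 and 27.1 CPM to 9.23, 9.9 and 9.89 CPM) and FADS2 (log2 fold change -1.09 ± 0.08 (SE), adjusted p = 2.4e-16), which overlap each other on opposite strands.

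Genes driven by ATF4, the transcription factor of the amino acid response, were lower, with 17 of 26 falling, 4 rising and a median of -0.48. PHGDH, the first enzyme of serine synthesis, measured 317, 305 and 300.1 CPM in the non-treated libraries and 81.1, 75 and 75.1 CPM with CDK4/6i (log2 fold change -1.99 ± 0.04 (SE), adjusted p = 6.1e-39), and PSAT1, the next enzyme, went from 224, 219.8 and 197 CPM to 84.3, 86.3 and 81.8 CPM (log2 fold change -1.34 ± 0.05 (SE), adjusted p = 7.7e-29). The amino acid carriers SLC1A5 and SLC7A5 fell (log2 fold changes -1.04 and -0.75), as did the alanyl-tRNA synthetase AARS1 (log2 fold change -1.03). Exceptions were DDIT4 (REDD1), an inhibitor of mTORC1, at 36.4, 36 and 37.7 CPM in the non-treated libraries and 107, 104 and 107 CPM with CDK4/6i (log2 fold change 1.53 ± 0.05 (SE), adjusted p = 2.9e-31), and SLC7A11, the cystine carrier, which rose by 0.93. With ATRA PHGDH, PSAT1 and DDIT4 had log2 fold changes of -1.56, -2.49 and 1.66.

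Most lysosomal genes rose. Of 56 tested, 42 were higher and 2 lower, with a median of 0.50, and their summed expression went from 5358 ± 125 CPM to 7498 ± 139 CPM. GAA, the acid alpha-glucosidase that degrades glycogen, measured 6.97, 4.95 and 6.03 CPM in the non-treated libraries and 22.6, 20.5 and 21.4 CPM with CDK4/6i (log2 fold change 1.84 ± 0.11 (SE), adjusted p = 1.9e-20). IDS, which acts on heparan and dermatan sulfate, measured 54.8, 55.4 and 50.1 CPM in the non-treated libraries and 147, 148 and 146 CPM with CDK4/6i (log2 fold change 1.46 ± 0.05 (SE), adjusted p = 1.6e-31), and SMPD1, acid sphingomyelinase, rose by 1.71. GUSB, a lysosomal glucuronidase, fell (log2 fold change -0.47). TFEB, the regulator of lysosomal genes, was not called (log2 fold change -0.11, adjusted p = 0.7). The autophagy list was mixed, with 16 of 28 higher, 4 lower and a median of 0.22. The cargo receptor SQSTM1 (p62) measured 142, 136 and 124 CPM in the non-treated libraries and 264, 252 and 268 CPM with CDK4/6i (log2 fold change 0.96 ± 0.05 (SE), adjusted p = 3.1e-23), and the ATG8 family gene GABARAPL1 rose by 0.93, while ATG3 and ATG5 of the conjugation machinery fell (log2 fold changes -0.49 and -0.40). SQSTM1 overlaps MGAT4B and ATG3 overlaps SLC35A5 on the opposite strand. In the iron list 8 of 13 rose and 3 fell (median 0.19), among them FTH1, ferritin heavy chain (log2 fold change 0.58), and ALAS1, which starts heme synthesis (log2 fold change 0.71). In the NRF2 list 9 of 20 rose and 3 fell, beside 28.3% and 27.9% of all tested genes (median 0.09, and 0.053 without non-treated replicate 3).

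Lists of quiescence, p53 response and survival genes held calls in both directions. Of 18 FOXO and quiescence genes 10 rose and 4 fell, with a median of 0.24. SESN3, a sestrin that restrains mTORC1, measured 38.7, 37.2 and 41.4 CPM in the non-treated libraries and 107, 114 and 107 CPM with CDK4/6i (log2 fold change 1.48 ± 0.05 (SE), adjusted p = 1.3e-28) and CCNG2, an atypical cyclin of non-dividing cells, rose from 9.22 to 21.2 CPM (log2 fold change 1.20 ± 0.10 (SE), adjusted p = 2.8e-15), whereas INSR, the insulin receptor, fell by 1.21. Of 21 p53 targets 11 rose and 8 fell, with a median of 0.25 that ran from 0.24 to 0.41 over the alternative settings. DDB2, a DNA damage sensor, fell (log2 fold change -1.90 ± 0.13 (SE), adjusted p = 8.6e-18) and ZMAT3, an RNA-binding p53 target, rose (log2 fold change 0.99 ± 0.06 (SE), adjusted p = 8.5e-20). In the BCL2 family 4 of 14 rose and 3 fell, near or below the shares among all tested genes (28.3% higher and 27.9% lower), and the median of 0.17 dropped to 0.034 without non-treated replicate 3, 0.048 without CDK4/6i replicate 3 and 0.069 without non-treated replicate 2. BCL2A1, an antiapoptotic member, rose from 3.89 to 15.1 CPM (log2 fold change 1.95 ± 0.10 (SE), adjusted p = 3.2e-22) and MCL1 rose by 0.44, while BCL2 and PMAIP1 (NOXA) fell (log2 fold changes -0.36 and -0.76).

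Of 34 tested inflammatory and secreted factors 24 rose, 13 at least 2-fold, with a median of 0.83, and VEGFA, the angiogenic factor, was the single fall (log2 fold change -0.51). CCL2, the monocyte chemoattractant, measured 58.6, 50.7 and 67.5 CPM in the non-treated libraries and 267, 259 and 226 CPM with CDK4/6i (log2 fold change 2.08 ± 0.06 (SE), adjusted p = 1.2e-31) and NFKB2, an NF-κB subunit, rose by 1.25. Of 35 tested interferon-stimulated genes 20 rose and 2 fell (median 0.47), with GBP2, a guanylate-binding protein, and STAT2, of the interferon-activated complex, rising by 1.77 and 0.73. Another 15 of the 50 list members were not tested. Among these, IFIT1 and USP18 had 18 and 37 counts over the non-treated libraries and 14 and 16 with CDK4/6i. IFI44L and OASL had 5 and 1 counts over the non-treated libraries and 13 and 9 with CDK4/6i. In MHC class I presentation 10 of 15 rose and 1 fell (median 0.31), and B2M, its light chain, rose by 0.46 (145 ± 2.55 to 200.2 ± 3.44 CPM). Of 29 tested genes in the list of AP-1, EGR and ERK feedback 13 were higher and 6 lower, beside 28.3% and 27.9% of all tested genes. The list median was 0.01 and reached 0.17 without non-treated replicate 3. EGR1 measured 4.09, 4.51 and 4.9 CPM in the non-treated libraries and 20.3, 17.7 and 18.4 CPM with CDK4/6i (log2 fold change 2.06 ± 0.10 (SE), adjusted p = 2.4e-24) and FOSB rose by 1.85, but JUN fell from 11.5 to 5.15 CPM (log2 fold change -1.17 ± 0.13 (SE), adjusted p = 1.9e-10).

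Myeloid genes were then examined in cells without a retinoid. The phagocyte NADPH oxidase rose as a whole, with all 6 subunit genes higher. CYBB, its catalytic membrane subunit gp91phox, measured 130.5, 129 and 135 CPM in the non-treated libraries and 454, 435 and 456 CPM with CDK4/6i (log2 fold change 1.77 ± 0.04 (SE), adjusted p = 1.8e-35). NCF1 rose by 1.40 and has near-identical copies in the genome. Among surface receptors 26 of 39 rose and 2 fell, with a median of 0.64. ITGAM (CD11b) measured 8.17, 9.59 and 9.97 CPM in the non-treated libraries and 25.4, 24.4 and 23 CPM with CDK4/6i (log2 fold change 1.39 ± 0.08 (SE), adjusted p = 3e-21), and CD48, a ligand of immune receptors, measured 24.4, 25.2 and 25 CPM in the non-treated libraries and 81.3, 79.5 and 78.5 CPM with CDK4/6i (log2 fold change 1.68 ± 0.06 (SE), adjusted p = 1.5e-29). FLT3, the receptor kinase of progenitors, fell from 12.4 to 3.58 CPM (log2 fold change -1.80 ± 0.15 (SE), adjusted p = 9.6e-15). In contrast, CD38 had 8, 0, 1 against 5, 5, 0 counts per library, at or near the limit of detection in both groups, and reached 399 ± 8.08 CPM with ATRA. Granule proteins did not move as a block. Of 11 tested azurophil granule genes 6 rose and 3 fell (median 0.54), while the list summed to 9929.9 CPM in non-treated cells and 8927 CPM with CDK4/6i. Of the 7 tested promyelocyte markers 4 fell and 3 rose (median -0.74), and their sum went from 7782 to 4627 CPM. Of 12 tested secondary and tertiary granule genes 7 rose and none fell (median 0.81, from 0.16 to 1.47 over the alternative settings). These are not independent of the lists above. BPI was also counted in the azurophil list and CYBA and CYBB in the NADPH oxidase list, and all of them rose. MPO, CTSG (cathepsin G) and MS4A3 fell (log2 fold changes -0.91, -2.10 and -0.81), whereas BPI, which kills Gram-negative bacteria, measured 52.8, 42.8 and 45.4 CPM in the non-treated libraries and 146, 153 and 149.7 CPM with CDK4/6i (log2 fold change 1.67 ± 0.05 (SE), adjusted p = 7.7e-32), and SERPINB1, LYZ and SRGN rose by 1.39, 1.03 and 0.71. LTF, LCN2 and CAMP of the secondary granules had 4, 1 and 30 counts over all 12 libraries and were not tested.

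The transcription factors of the lineage were called in both directions, with 6 of 17 higher and 7 lower, beside 28.3% and 27.9% of all tested genes. CEBPA, the factor of granulocyte progenitors, fell from 386, 377 and 368 CPM to 224, 229 and 225 CPM (log2 fold change -0.74 ± 0.04 (SE), adjusted p = 1e-23), SPI1 (PU.1) rose by 0.26, MYB by 0.12 and GATA2 by 0.23. With ATRA, MYB and GATA2 had log2 fold changes of -2.21 and -2.86. Of 14 tested retinoid receptor and target genes 6 rose and 1 fell, with a median of 0.30 that ran from 0.064 to 0.38. RARA measured 43.8, 43.3 and 46.1 CPM in the non-treated libraries and 47.8, 47 and 45.1 CPM with CDK4/6i and was not called (log2 fold change 0.07, adjusted p = 0.26), and TGM2, a direct retinoid target, had 1, 0, 0 against 0, 1, 0 counts per library. In the list of PML body and histone H3.3 chaperone genes 15 of 26 fell and 3 rose, with a median of -0.19. PML measured 96.6, 88.2 and 93.4 CPM in the non-treated libraries and 105, 101 and 101 CPM with CDK4/6i (log2 fold change 0.14 ± 0.05 (SE), adjusted p = 0.0061), a call that was lost without CDK4/6i replicate 1 (adjusted p = 0.053) or non-treated replicate 2 (adjusted p = 0.072). SP100, another body component, rose by 0.54, and SENP1, which removes SUMO, fell by 1.09, overlapping PFKM on the opposite strand.

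**Figure D4:**
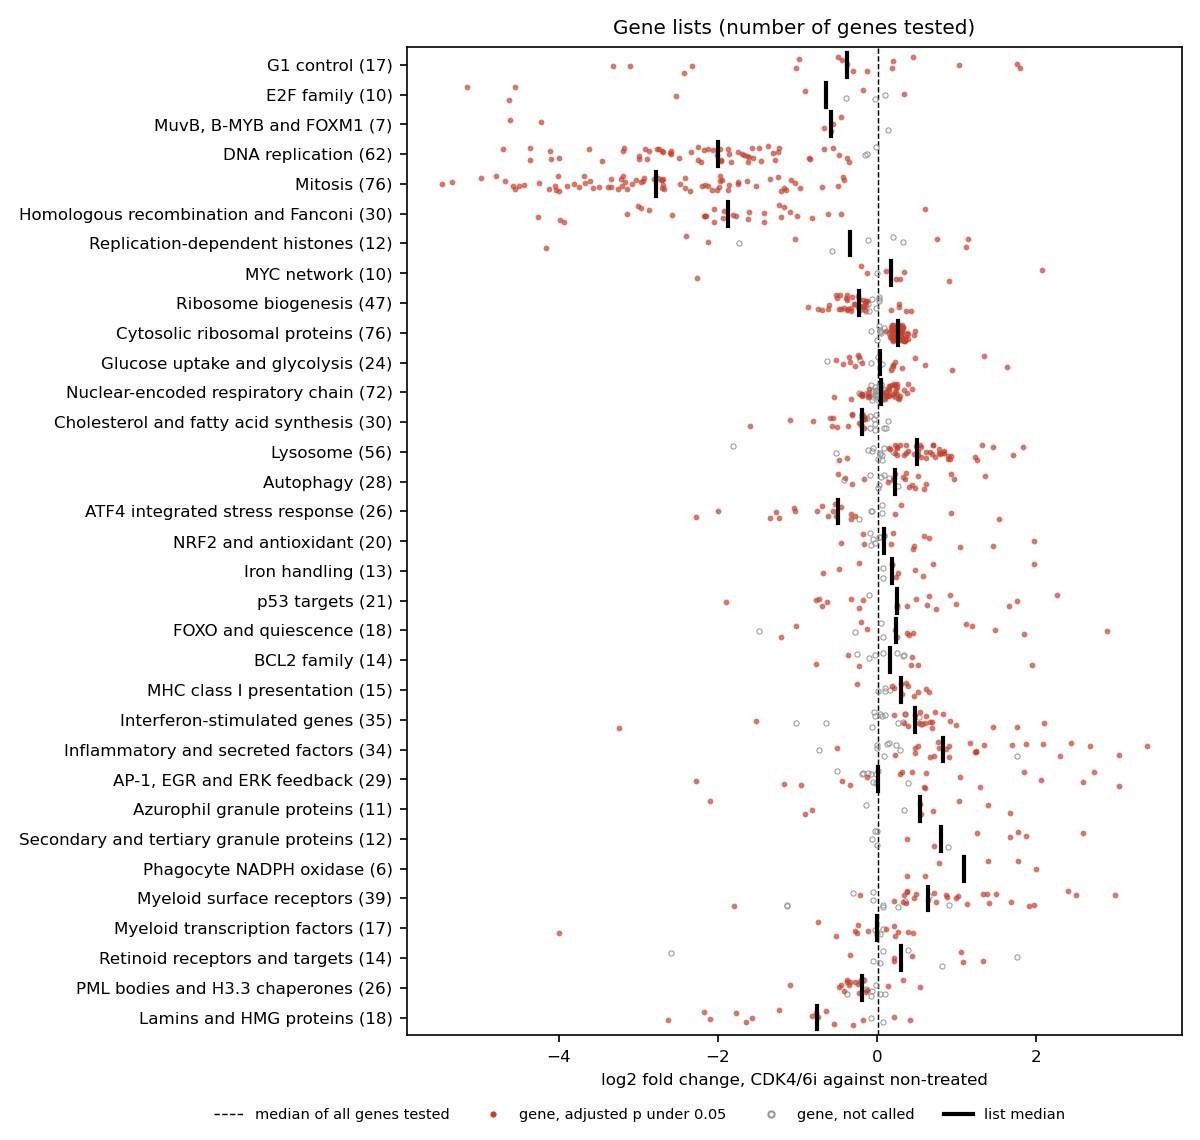
Log2 fold change of every tested gene in 33 lists with CDK4/6i against non-treated cells, with called genes filled, genes not called open, a bar at each list median and a dashed line at the median of all genes (0.02). Mitosis (-2.78), DNA replication (-1.99) and homologous recombination (-1.87) lie furthest to the left, and phagocyte NADPH oxidase (1.09) furthest to the right.

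CDK4/6i was also compared directly with ATRA. The 2 drugs differed in 9433 of 13318 genes (70.8%), with 4744 higher (35.6%) and 4689 lower (35.2%) with CDK4/6i. Values against non-treated cells share the same 3 non-treated libraries, so that they are set side by side without a test between them. At 48 h the mitosis list had a median of -2.78 with CDK4/6i and 0.26 with ATRA, and 75 of its 76 genes were lower with CDK4/6i than with ATRA. For DNA replication the medians were -1.99 and -0.32, with 57 of 62 lower with CDK4/6i. MKI67 measured 1035, 1043 and 1006 CPM with ATRA and CDK1 179, 181 and 185 CPM, both above every CDK4/6i library (log2 difference of CDK4/6i from ATRA -5.62 and -4.98). Ribosome biogenesis was the reverse, with 43 of 47 genes higher with CDK4/6i than with ATRA, and 74 of 76 ribosomal protein genes were also higher. All 6 NADPH oxidase genes were lower with CDK4/6i than with ATRA, at medians of 1.09 and 2.47 against non-treated cells.

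Among the 9433 genes, 1768 were called in opposite directions by the drugs, 1014 of them higher with CDK4/6i and 754 lower. PRG2, the major basic protein of eosinophil granules, measured 5865, 5983 and 5724 CPM in the non-treated libraries and 7089, 7226 and 7299 CPM with CDK4/6i and 261, 297 and 299.7 CPM with ATRA (log2 difference of CDK4/6i from ATRA 4.65, adjusted p = 2.2e-49). HPGD, which inactivates prostaglandins, measured 21.6, 21.6 and 21.2 CPM in the non-treated libraries and 86.7, 90.2 and 90.6 CPM with CDK4/6i and 4.44, 3.38 and 4.31 CPM with ATRA (4.46, adjusted p = 2.6e-41). SERPINB10, a serpin of myeloid cells, and MZB1, a chaperone of the endoplasmic reticulum, differed by 5.41 and 4.97. Of the second kind, SLC2A5, the fructose transporter GLUT5, measured 22.2, 19.1 and 20.6 CPM in the non-treated libraries and 9.59, 9.41 and 9.77 CPM with CDK4/6i and 711, 704 and 697 CPM with ATRA (-6.20, adjusted p = 5.8e-55), and MCEMP1, a membrane protein of myeloid cells, measured 8.96, 7.4 and 7.66 CPM in the non-treated libraries and 3.84, 2.75 and 3.69 CPM with CDK4/6i and 304, 318 and 311 CPM with ATRA (-6.49). The other genes at this end were KIF20A, MKI67 and IQGAP3.

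**Figure D5:**
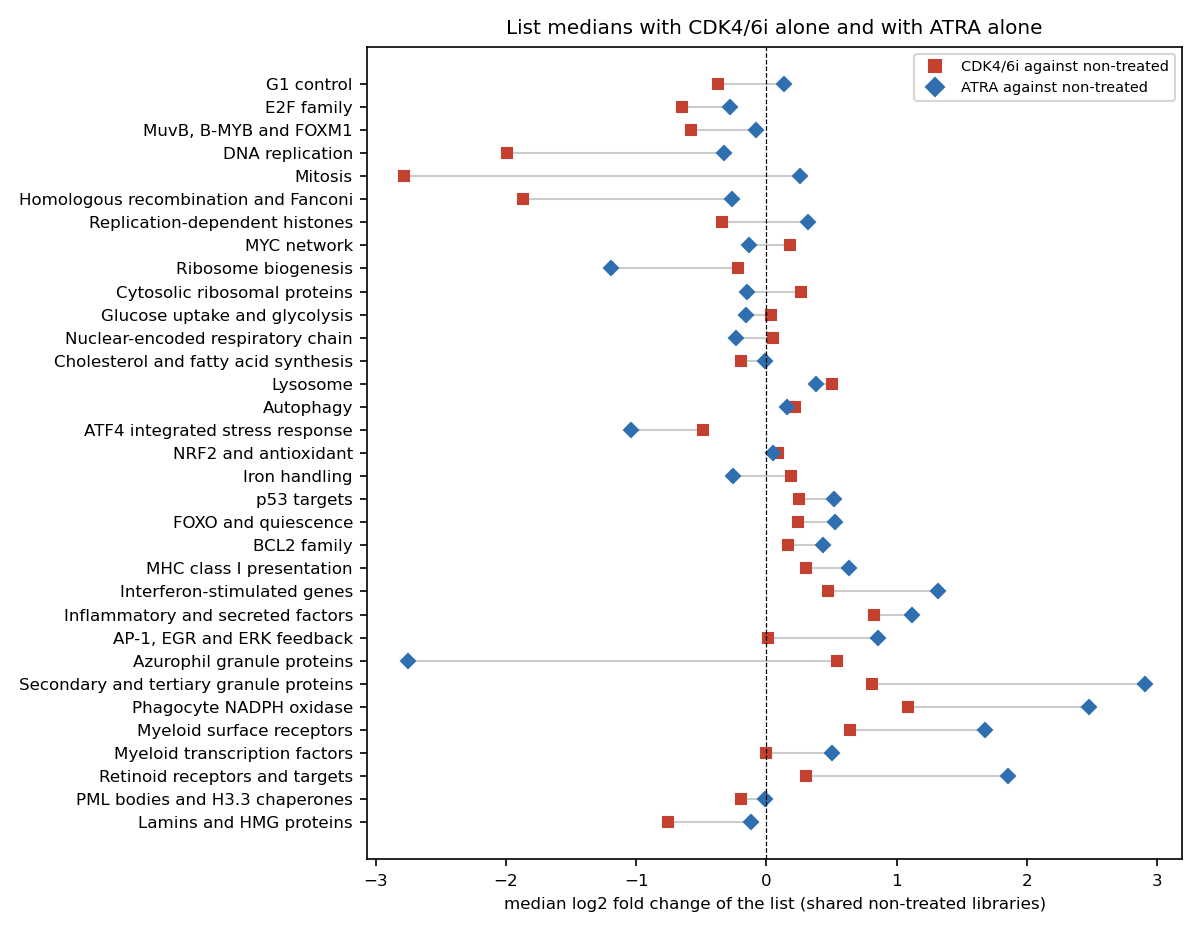
Median log2 fold change of each gene list against non-treated cells with CDK4/6i (squares) and with ATRA (diamonds), joined by a line, with a dashed line at 0. Mitosis lies at -2.78 with CDK4/6i and 0.26 with ATRA, and ribosome biogenesis at -0.22 and -1.19. Both values use the same 3 non-treated libraries.

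Calls were also counted by the kind and place of genes. Of 10863 protein-coding genes tested 3332 rose (30.67%) and 3489 fell (32.12%). Of 1116 long non-coding RNAs 245 rose (21.95%) and 69 fell (6.18%), both below the shares of all tested genes (28.3% higher and 27.9% lower). At 2-fold or more 131 of these RNAs rose and 41 fell, beside 558 and 629 of the protein-coding genes. Across chromosomes the share of tested genes that rose ran from 24.2% on chromosome 9 to 34.0% on chromosomes 18 and 19, and the share that fell from 19.5% on X to 37.1% on chromosome 13, the mitochondrial genome aside. At the edge of detection, 67 of the 741 rises of at least 2-fold were from genes with 3 counts or fewer in each non-treated library, and 28 of the 735 falls reached 3 counts or fewer in each treated library, so the fitted sizes of these changes depend on the prior count and are not given.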

How the data were processed

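RNA sequencing of HL60 cells was analysed from the table of read counts per gene that the authors deposited, 1 column per library. The libraries were made with a directional kit, and the submitters' processing notes name Trimmomatic 0.33, STAR 2.7.11a and hg38. The authors' methods name RSEM, while the table has the layout of a read counter with chromosome, start, end and strand, so the counting tool and its strand setting were taken as not stated. No other per-sample column was left out (0).

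Genes were kept by edgeR's filterByExpr over the 4 groups of all 12 libraries (13318 genes), scaled with TMM factors and fitted by edgeR 4.0.16 in R 4.3.3 with the quasi-likelihood F test, without a replicate block, so that all groups shared 1 estimate of the spread. CDK4/6i was contrasted with non-treated cells and with ATRA. P-values were adjusted over all genes tested by Benjamini-Hochberg at 0.05, and all tests were two-sided. The fit was tested on simulated data. Depth was 15392648 to 18679544 counts per library, and replicates of a group differed by more than counting noise (chi-square per degree of freedom 1.85 to 4.72). Gene lists are described by counts and medians. Genes named were all tested members of the G1, E2F and MuvB lists, the largest called members of the others at a mean of at least 5 CPM, the 12 largest rises and falls outside the cell cycle lists, the 6 largest gains and losses of CPM, and the 5 most different from ATRA at each end of the opposite calls. Members not called, and the 2 smallest falls in mitosis, were named after their values were seen. The lists and this rule were chosen with earlier results of these data known. Promoters were matched to genes by symbol. DESeq2 1.42.0, other scalings and filters, the replicate block and leaving out each library were alternatives. Values of some list members are not reported here.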

Additional observations from a re-analysis of the deposited data

How the results depend on the processing

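CDK4/6i changed 6742 to 7497 genes under the other scalings and filters, with DESeq2 and with only the 6 libraries compared, 7000 to 7152 with 1 library left out, and 7392 with the replicate number as a block. The deviations of same-numbered libraries had correlations of 0.033, -0.020 and 0.027. These cannot tell whether same-numbered cultures were set up together, which the labels do not say. With the block every named gene kept its direction and side of the threshold. With only genes of at least 10 counts in every library, 10296 were tested and the changes of at least 2-fold numbered 791, with 379 higher and 412 lower. Leaving out 1 library gave 1460 to 1511. Of 3949 recomputed values of named genes, 3924 stayed on their side of the threshold, 25 values in 12 genes lost the call and 0 reversed.

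With at least 10 counts in every library, list medians were -0.018 for the E2F family, -1.86 for DNA replication, -2.44 for mitosis, -1.42 for homologous recombination, 0.34 for histones, 0.75 for inflammatory factors, 1.47 for secondary and tertiary granules, 0.047 for myeloid transcription factors and 0.22 for retinoid genes. Without genes also on alternate contigs they were -0.39 for the E2F family, -2.71 for mitosis, 0.24 for the MYC network, 0.31 for p53 targets, 0.22 for MHC class I, 0.87 for inflammatory factors, 1.40 for NADPH oxidase and 0.21 for retinoid genes. With no filter they were -1.34 for histones, 0.23 for the MYC network, 0.074 for the BCL2 family, 0.21 for MHC class I, 0.76 for inflammatory factors, 0.16 for secondary and tertiary granules and 0.064 for retinoid genes. With only the 6 libraries compared they were 0.042 for histones, 0.87 for inflammatory factors, 1.46 for secondary and tertiary granules, 0.69 for myeloid surface receptors, 0.043 for myeloid transcription factors and 0.38 for retinoid genes. Filters change which genes are tested, and otherwise the cause was not tested.

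With 1 library left out the medians ran from -0.015 to 0.17 for AP-1, EGR and ERK feedback genes, -0.51 to -0.43 for ATF4 targets, 0.034 to 0.21 for the BCL2 family, -0.71 to -0.58 for the E2F family, 0.79 to 0.85 for inflammatory factors, 0.32 to 0.50 for interferon-stimulated genes, 0.21 to 0.27 for the MYC network, -0.67 to -0.56 for MuvB, 0.50 to 0.66 for myeloid surface receptors, -0.81 to -0.23 for histones, 0.21 to 0.37 for retinoid genes, 0.61 to 0.96 for secondary and tertiary granules and 0.24 to 0.41 for p53 targets. Moves of over 1.5 times came without any 1 library for AP-1, EGR and ERK feedback genes, without CDK4/6i replicate 2 (-0.81), CDK4/6i replicate 3 (-0.54) or non-treated replicate 1 (-0.52) for histones, and without CDK4/6i replicate 1 (0.41) or non-treated replicate 2 (0.38) for p53 targets. They also came without non-treated replicate 3 for BCL2 (0.034), glycolysis (0.0068), NRF2 (0.053) and respiratory chain genes (0.036), without CDK4/6i replicate 3 (0.048) or non-treated replicate 2 (0.069) for BCL2, and without CDK4/6i replicate 1 (0.014) or non-treated replicate 2 (0.057) for glycolysis. Changes in genes near 3 counts per library could not be sized at this depth.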
